A study of Mus musculus with 2 samples.

Results

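Kinesins and cytoplasmic dyneins are the motor proteins that walk along microtubules, and 71 of their genes were examined among the 55323 rows of an RNA-seq table of cultured mouse Schwann cells. The members were all protein-coding rows whose symbol begins with Kif or Kifc and a digit, Klc and a digit, Dync1, Dync2 or Dynl. They comprised 47 genes of kinesin heavy and light chains and 24 genes of dynein chains. Of the 71 genes, 9 encode motors of cell division and are called mitotic motors here. Another 45 encode motors and chains of intracellular transport, and the remaining 17, which have other or mixed roles, were kept apart.

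Total RNA came from TgS1 cells, a line that the labels give as Schwann cells, the glia of peripheral nerves, of the genotype TTR V30M tg. The first group had been cultured for a long term in SCM, an abbreviation left unexplained by the labels. The other had been cultured equally in DMEM, a basal medium in common use, for which the series' design text has S-DEMEM. Cell line, transgene and library kit were shared by both groups, so neither is a control without the transgene. Each medium is represented by 1 library, so no replicate error and no p-value stands behind a difference between them. The cells bore the defining markers of Schwann cells, with Sox10 at 113 FPKM in SCM and 126 FPKM in DMEM and all 7 genes of that marker list above the filter used below. Markers of other cell types were summed as well, to 0.0688 FPKM in SCM and 0.171 FPKM in DMEM for 4 fibroblast genes, 1.47 and 1.37 FPKM for 4 macrophage genes and 0.0219 and 0.0552 FPKM for 3 endothelial genes. The sums were 6.17 FPKM in SCM and 7.85 FPKM in DMEM for 5 neuronal genes, nearly all from Syn1, and 3.04 and 3.49 FPKM for 3 genes of ciliated cells, mostly from Rsph1. These are close in size to the summed mitotic motors below, and their part in the results was not tested. Lum, Col1a1, Adgre1, Cdh5 and Kdr had 0 reads in both libraries.

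Values are fragments per kilobase of gene length, scaled to the assigned reads of each library (FPKM), so levels can be compared between genes. Between libraries the comparison is approximate, because FPKM summed to 247650 in SCM and 237098 in DMEM. Scaling both sums to the same total (TPM) would shift the log2 of each plain FPKM ratio by -0.063. Differences of that size depend on the scaling. Whole reads were recovered from these values, 36666676 in SCM and 29085791 in DMEM. At these depths a count of 0 allows up to 0.0818 FPKM in SCM and 0.103 FPKM in DMEM for a gene of 1 kb, taking 3 reads as the limit. A ratio is the plain FPKM ratio of SCM over DMEM, followed by its 95% exact (Clopper-Pearson) counting interval. Intervals and floors cover counting error only and compare these libraries, not the conditions. The log2 ratio is log2((FPKM in SCM + 1) / (FPKM in DMEM + 1)), which understates differences of low genes, and was taken for genes with at least 1 FPKM in either library, called measured here. Genes with a difference of 2-fold or more in this measure are called higher or lower.

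Kinesins mostly move cargo toward the plus ends of microtubules at the cell periphery, and cytoplasmic dynein carries cargo back toward the minus ends near the nucleus. In long cells such as neurons and Schwann cells, this traffic delivers mitochondria, vesicles, messenger RNA and membrane proteins to distant parts of the cell. A separate set of kinesins is made mainly by dividing cells, where they build the spindle, move chromosomes and complete the separation of the daughter cells. Transcription of many genes of that kind is held down outside mitosis through a short promoter element, the cell-cycle homology region (CHR), often close to a CCAAT box.

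Promoter sequences near the transcription start are shown for the mitotic motors that differed most between the media, for Kifc1, a mitotic motor that was not higher in SCM, and for Kif21a, a transport motor that was. They are from RefSeq on the build GRCm38.p6 and run from 120 bases before the start to 30 bases after it, 5′ to 3′ on the strand of the gene. Capitals mark CHR matches, TTTGAA or TTCGAA on either strand, and CCAAT boxes, CCAAT on either strand. No match of one motif overlapped a match of the other in these sequences.
Kif4, chrX:100625945-100626094, plus strand: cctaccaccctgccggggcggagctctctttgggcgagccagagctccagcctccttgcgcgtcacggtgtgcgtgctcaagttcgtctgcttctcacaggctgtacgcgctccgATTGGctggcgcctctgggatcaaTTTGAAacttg
Kif11, chr19:37376262-37376411, plus strand: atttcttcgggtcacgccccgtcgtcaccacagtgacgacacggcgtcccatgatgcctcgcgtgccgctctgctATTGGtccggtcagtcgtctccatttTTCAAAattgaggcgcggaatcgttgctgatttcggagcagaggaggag
Kif23, chr9:61946770-61946919, minus strand: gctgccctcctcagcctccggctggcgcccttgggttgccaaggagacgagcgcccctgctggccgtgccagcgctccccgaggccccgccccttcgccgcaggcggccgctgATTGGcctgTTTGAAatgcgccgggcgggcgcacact
Kif2c, chr4:117178743-117178892, minus strand: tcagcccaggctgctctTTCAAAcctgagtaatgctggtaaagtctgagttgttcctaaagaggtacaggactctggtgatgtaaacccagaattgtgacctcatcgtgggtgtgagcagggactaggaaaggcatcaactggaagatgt
Kifc1, chr17:33890604-33890753, minus strand: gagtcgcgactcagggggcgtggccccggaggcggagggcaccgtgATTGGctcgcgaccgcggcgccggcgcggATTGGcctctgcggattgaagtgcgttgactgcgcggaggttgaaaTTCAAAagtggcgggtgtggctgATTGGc
Kif21a, chr15:91049922-91050071, minus strand: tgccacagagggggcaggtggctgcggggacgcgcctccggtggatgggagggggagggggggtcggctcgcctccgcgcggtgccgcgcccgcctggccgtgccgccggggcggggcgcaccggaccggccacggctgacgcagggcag

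The Kif4, Kif11 and Kif23 sequences each held a CHR match downstream of a CCAAT box, and Kif2c held a CHR match without a CCAAT box. The Kifc1 sequence had both motifs as well, and the Kif21a sequence had neither. RefSeq windows of 300 bases were at hand for 47 of the 71 members, and for 8 of the mitotic motors. All 8 of those windows held a CHR match, against 1 of 29 windows of transport motors and 6 of 16 windows of the other motors. Among all 32851 promoter windows of the same length, 19.2% held one. The 1 transport window with a match belonged to Kif1a, the other transport motor called higher in SCM. Its match began at position -44 from the start, and another Kif1a window had no match. A CHR match that began no more than 50 bases before the start, or in the 50 bases after it, was found in 7 of the 8 mitotic windows and in 5.31% of all windows. The limit of 50 bases was chosen after the positions were seen. The CCAAT box was found in 6 of 8 mitotic windows, 10 of 29 transport windows and 37.4% of all windows. A match of these letters is a description of the sequence, and binding was not measured.

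**Figure D1:**
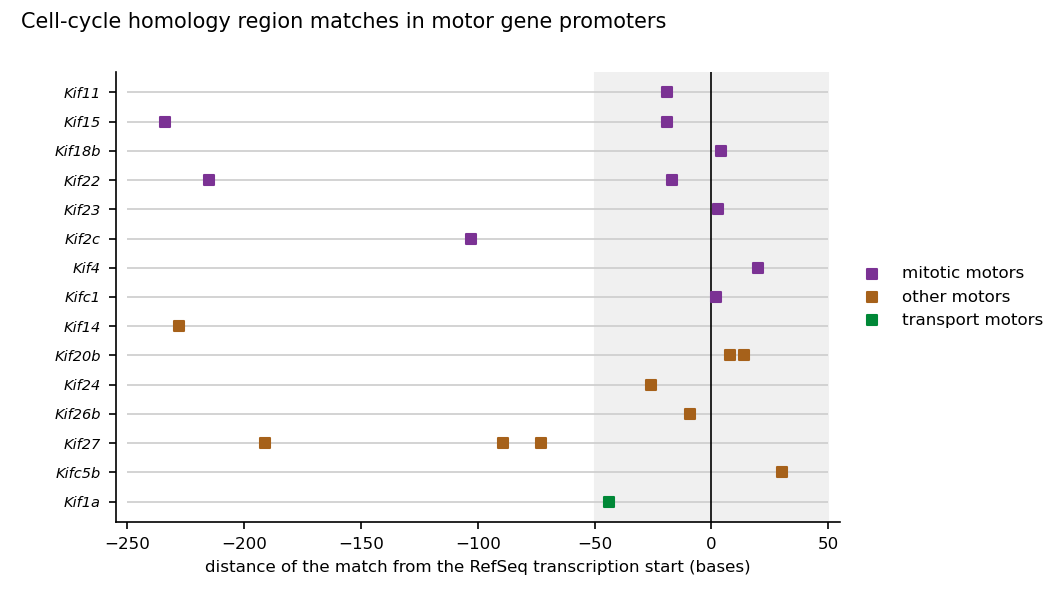
Distance in bases from the RefSeq transcription start to the start of each CHR match (squares) in the windows of motor genes that hold one, with mitotic motors above other motors and the transport motor Kif1a at the bottom. The grey band spans 50 bases on each side of the start, and matches in 7 of the 8 mitotic motors lie within it, with Kif2c outside.

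Mitotic motors were low in both media and leaned toward SCM. All 9 had reads, at 0.252 to 4.28 FPKM in SCM and 0.0788 to 1.81 FPKM in DMEM. Their FPKM summed to 10.1 in SCM and 6.05 in DMEM, a ratio of 1.67. The ratio was above 1 for 7 of the 9, with a median of 1.74, and the counting interval lay above 1 for 5 and below 1 for 1. Of the 5511 protein-coding genes under 5 FPKM in both libraries with at least 20 reads over both, 26.0% had an interval above 1 and 27.8% below it. Kif2c, Kif4 and Kif11 reached a ratio of 2 with an interval that excluded 1. Of the same 5511 genes, 9.89% reached that ratio in the same direction, and 49% had a ratio above 1. The ratio of Kif11 was known when these genes were singled out, so the count is a description. In bulk RNA, more cycling cells and more of these transcripts per cycling cell cannot be told apart.

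Among the motors that build the spindle, Kif2c and Kif11 differed most. Kif2c, which depolymerises microtubule ends at the kinetochore, had 0.344 FPKM (55 reads) in SCM and 0.0788 FPKM (10 reads) in DMEM. Its ratio was 4.36 (2.20 to 9.60), the highest among the members with at least 20 reads, with a wide interval. Kif11, the kinesin-5 that pushes the spindle poles apart, had 1.89 FPKM (518 reads) in SCM and 0.917 FPKM (199 reads) in DMEM. Its ratio was 2.06 (1.75 to 2.44). Kif15, a kinesin-12 that can take over part of the work of Kif11, had 119 reads in SCM and 73 reads in DMEM, and its ratio of 1.29 had an interval (0.958 to 1.76) that held 1. Kif22 and Kif18b differed by less than counting error. Kif22, a chromokinesin that pushes chromosome arms away from the poles, had 0.512 and 0.463 FPKM in SCM and DMEM, and Kif18b, which trims astral microtubules, had 0.252 and 0.279 FPKM.

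Of the motors of anaphase and cytokinesis among the 9, Kif4, Kif23 and Kif20a had ratios above 1, and none reached the 2-fold call on the log2 scale. Kif4, a chromokinesin that organises the microtubules between the separating chromosomes, had 4.28 FPKM (865 reads) in SCM and 1.66 FPKM (267 reads) in DMEM. It was the most abundant mitotic motor in SCM, and in DMEM it stood close behind Kifc1. Its ratio was 2.57 (2.24 to 2.96) and its log2 ratio 0.99, just short of the 2-fold call. Kif4 shares 832 bases with Pdzd11 on the opposite strand, a gene with 1094 reads in SCM and 881 reads in DMEM. The sources used here do not say whether counting used the strand, and the part of shared reads in the Kif4 difference was not tested. Kif23, a subunit of the centralspindlin complex of the cleavage furrow, had 0.349 FPKM in SCM and 0.183 FPKM in DMEM, a ratio of 1.91 (1.32 to 2.80). Kif20a, which brings the chromosomal passenger complex to the midzone, had 0.729 FPKM (116 reads) in SCM and 0.420 FPKM (53 reads) in DMEM, a ratio of 1.74 (1.24 to 2.45). It shares 1271 bases with the opposite-strand gene Cdc23, at 7.43 FPKM in SCM and 6.12 FPKM in DMEM.

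The minus-end kinesin Kifc1 went the other way. Kifc1, which gathers microtubules at the spindle poles, had 1.45 FPKM (181 reads) in SCM and 1.81 FPKM (180 reads) in DMEM, a ratio of 0.798 (0.645 to 0.986). Its copy Kifc5b had 0.273 FPKM (37 reads) in SCM and 0.669 FPKM (72 reads) in DMEM and was 2.45-fold lower in SCM (1.63 to 3.75). Of the stretches of 50 bases in annotated Kifc1 transcripts, 39.7% also occur in another gene, first of all Kifc5b, so the split of reads between the copies is uncertain. Both copies lay lower in SCM.

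**Figure D2:**
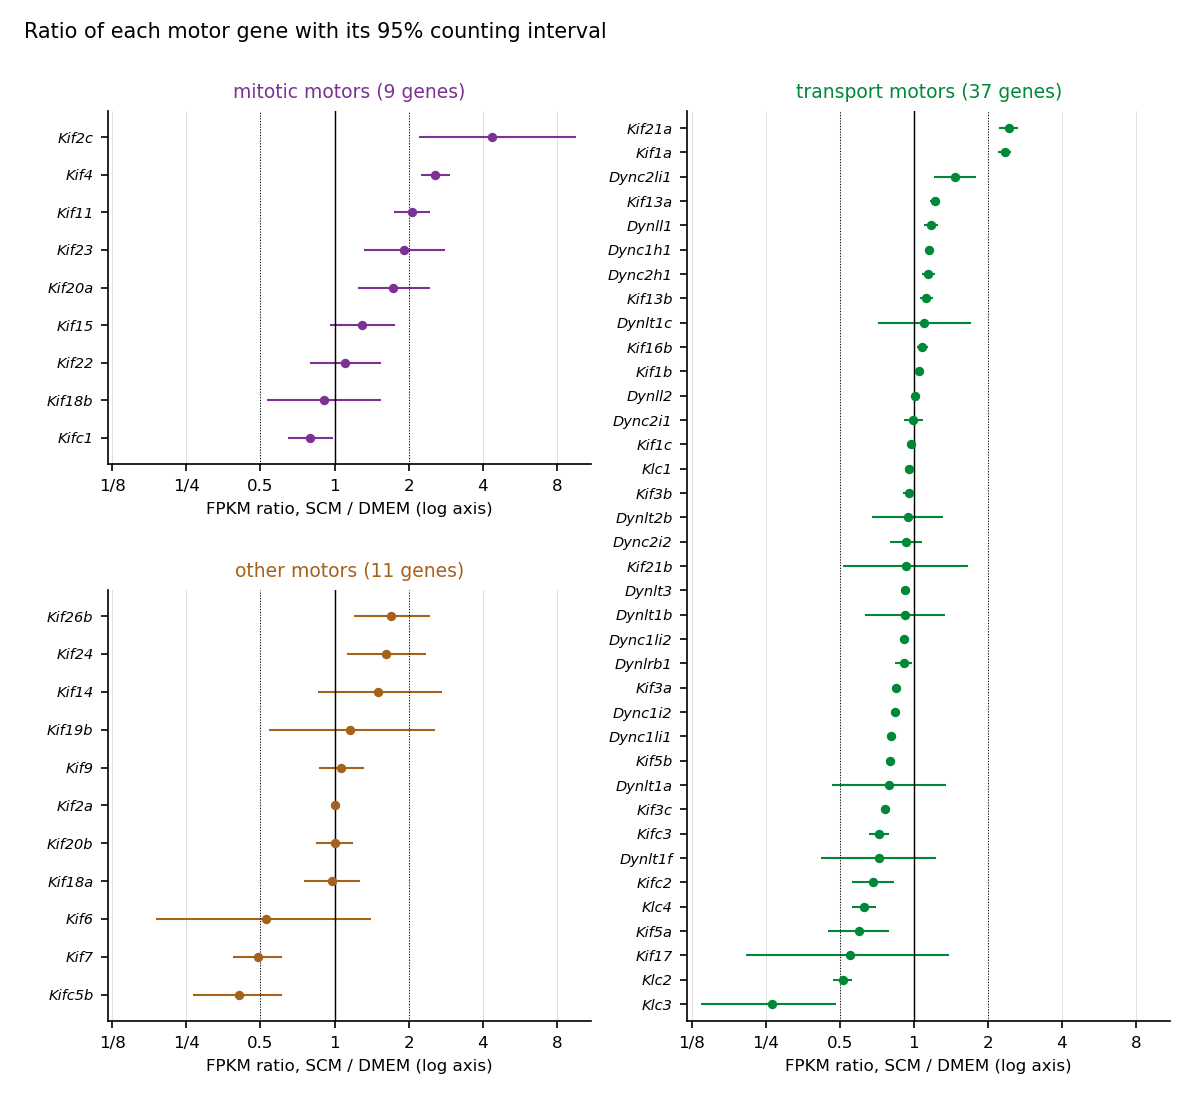
FPKM ratio of SCM over DMEM (log axis) for the 57 motor genes with at least 20 reads over both libraries, in panels of mitotic, other and transport motors, with bars for the 95% counting interval, a solid line at 1 and dotted lines at 0.5 and 2. Mitotic motors run from 0.798 (Kifc1) to 4.36 (Kif2c), while most transport motors lie between the dotted lines, and Kif1a and Kif21a stand apart above 2.

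Genes that work with the mitotic motors differed in both directions. Of 23 such genes, all with at least 20 reads, 9 had a ratio of at least 2 with an interval above 1 and 1 had the reverse, and the median ratio was 1.67. Over all 12050 protein-coding genes with at least 20 reads, 6.32% were higher and 4.27% lower by that rule. Among those under 5 FPKM in both libraries, where most of the 23 lie, 9.89% were higher and 6.80% lower. Cenpe, the kinesin-7 of the kinetochore whose symbol lies outside the naming rule, had 1.05 FPKM in SCM and 0.542 FPKM in DMEM, a ratio of 1.94 (1.59 to 2.39). Anln, which encodes anillin of the contractile ring, had 4.35 FPKM in SCM and 1.25 FPKM in DMEM. It and Mki67, a marker of cycling cells at 4.50 FPKM in SCM and 1.67 FPKM in DMEM, were the only ones of 11 measured genes past 2-fold on the log2 scale. Top2a, which encodes a topoisomerase of chromosome condensation, had 5.86 FPKM in SCM and 2.70 FPKM in DMEM, a ratio of 2.17 (1.99 to 2.37). Both of the most abundant members had ratios below 1. Prc1, the midzone bundler that recruits Kif4, had 18.4 FPKM in SCM and 21.5 FPKM in DMEM, and Numa1, a dynein anchor at the spindle poles, had 39.6 and 49.1 FPKM in the same order. Aurka, the kinase of the spindle poles, had 0.420 FPKM (39 reads) in SCM and 0.869 FPKM (64 reads) in DMEM and was 2.07-fold lower in SCM (1.37 to 3.16). Mki67 was already known to be higher in SCM when this list was made, so the list is not independent evidence.

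Transport motors were far more abundant and differed little as a group. Of the 45 transport genes 29 were measured, and their median log2 ratio was -0.06, beside -0.03 over all 10081 measured protein-coding genes. Their FPKM summed to 953 in SCM and 1027 in DMEM, a ratio of 0.928. Higher at 2-fold were 2 of the 29, Kif1a and Kif21a, and lower at 2-fold were 0. Among all 36 measured members these were also the only calls. The background is 3.10% of rows higher and 2.80% lower over all 12334 measured rows, and 2.48% higher and 1.44% lower over the protein-coding ones. With 36 genes, 2 higher calls are close to that background. The 3 measured mitotic motors had a median log2 ratio of 0.59, which is the value of Kif11, 0.66 above the transport median. Kif11 passed the filter only through its SCM level, and without the filter the mitotic median was 0.19, so nothing is read from this difference.

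**Figure D3:**
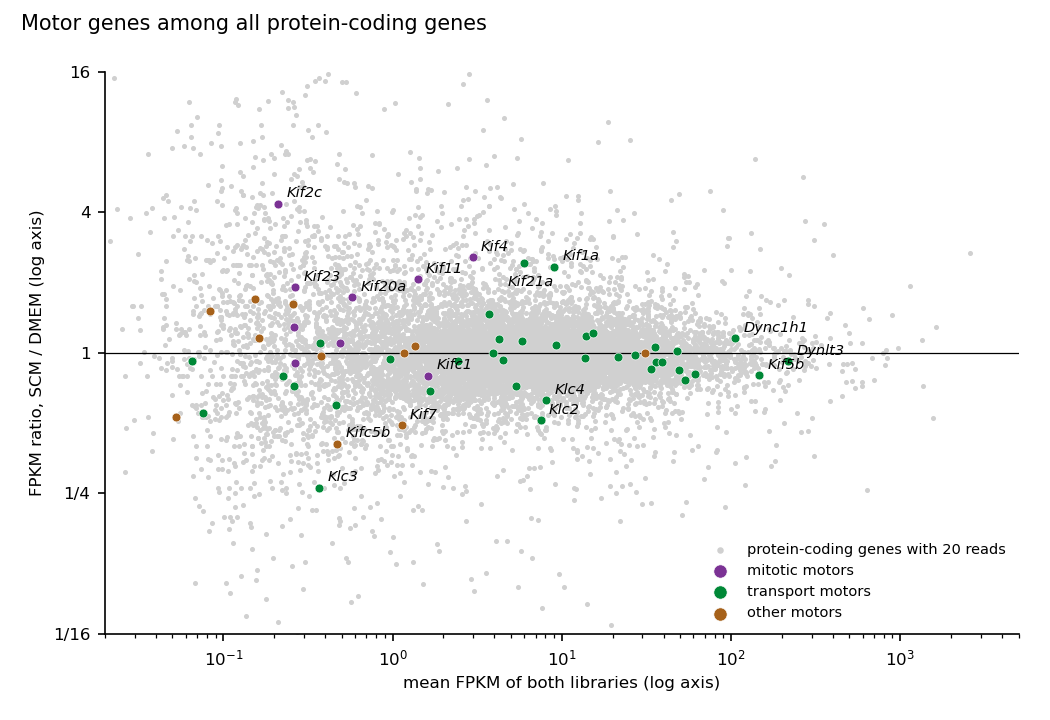
FPKM ratio of SCM over DMEM (vertical log axis) against the mean FPKM of both libraries (horizontal log axis) for protein-coding genes with at least 20 reads (grey, cropped at ratios of 1/16 and 16) and for the mitotic, transport and other motors (coloured). The mitotic motors lie in the low part of the range where grey points scatter widely, and Kif1a and Kif21a lie above most grey points at their level.

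Of the 8 kinesin-3 genes 6 were measured, and Kif1a was the 1 called higher, while Kif14 lay under the filter and Kif28 had 0 reads. Kif1a, best known as the carrier of synaptic vesicle precursors in neurons, had 12.6 FPKM (4315 reads) in SCM and 5.39 FPKM (1463 reads) in DMEM. Its ratio was 2.34 (2.20 to 2.48) and its log2 ratio 1.09. The ratios of its close relatives lay near 1. Kif1b, a carrier of mitochondria and vesicles that in zebrafish also serves the transport of myelin basic protein mRNA, had 36.6 FPKM in SCM and 34.7 FPKM in DMEM, and Kif1c, which moves vesicles, integrins and mRNA, had 26.6 and 27.3 FPKM. Kif1a therefore made up 16.7% of the summed KIF1 FPKM in SCM and 8.01% in DMEM. The endosomal carriers were not called. Kif13a had a ratio of 1.21 (1.16 to 1.27), Kif13b, which binds the scaffold protein Dlg1, 1.13 (1.06 to 1.19) and Kif16b 1.08 (1.03 to 1.14).

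Kif21a, a kinesin-4 that slows microtubule growth at the cell cortex, was the other called gene. It had 8.47 FPKM (2011 reads) in SCM and 3.49 FPKM (657 reads) in DMEM, with a ratio of 2.43 (2.22 to 2.66) and a log2 ratio of 1.08. The mainly neuronal paralogue Kif21b was near the limit of detection, with 28 reads in SCM and 24 reads in DMEM. With a pseudocount of 3 FPKM neither gene was called, at log2 ratios of 0.90 for Kif1a and 0.82 for Kif21a. Neither Kif1a nor Kif21a overlaps another row of the table. Of the 5 neuronal markers, Rbfox3 and Elavl4 had 0 reads in both. Syn1 alone was measured, at 5.89 FPKM in SCM and 7.64 FPKM in DMEM, and Snap25 had 0.161 and 0.0911 FPKM.

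Kinesin-1 is the general transport kinesin, a pair of heavy chains with a pair of cargo-binding light chains. Its heavy chain was almost entirely Kif5b, the form found in all tissues, which made up 99.7% of kinesin-1 heavy-chain FPKM in SCM and 99.6% in DMEM. Kif5b had 130 FPKM (38004 reads) in SCM and 162 FPKM (37646 reads) in DMEM, a ratio of 0.801 (0.789 to 0.812). The neuronal forms were low. Kif5a had 0.347 FPKM in SCM and 0.580 FPKM in DMEM, and Kif5c had 5 reads in SCM and 0 in DMEM.

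The light chains shifted in their makeup. Klc1 had 20.9 FPKM in SCM and 21.8 FPKM in DMEM, a ratio of 0.959. Klc2 had 5.09 FPKM (771 reads) in SCM and 9.91 FPKM (1191 reads) in DMEM and was 1.95-fold lower in SCM (1.78 to 2.13). Klc4 had 6.21 FPKM in SCM and 9.91 FPKM in DMEM and was 1.60-fold lower (1.42 to 1.79). The share of Klc1 among the light chains was thus 64.6% in SCM and 51.7% in DMEM, and that of Klc2 15.7% and 23.5%. Klc3, known from sperm tails, had 15 reads in SCM and 45 reads in DMEM and was 3.78-fold lower (2.07 to 7.30). It shares 744 bases with Ercc2 on the opposite strand, at 3.06 FPKM in SCM and 3.98 FPKM in DMEM. Summed over genes, heavy chains stood to light chains at 4.02 in SCM and 3.85 in DMEM. At 1.5-fold on the log2 scale, 2 of the 36 measured members were lower, Klc2 and Klc4, and 4 were higher, Kif1a, Kif21a, Kif4 and Kif11. Over measured protein-coding genes 4.99% were lower and 6.44% higher at that limit. Kif11, at 0.917 FPKM in DMEM, was measured only through its SCM level, so nothing is read from its place in this count.

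**Figure D4:**
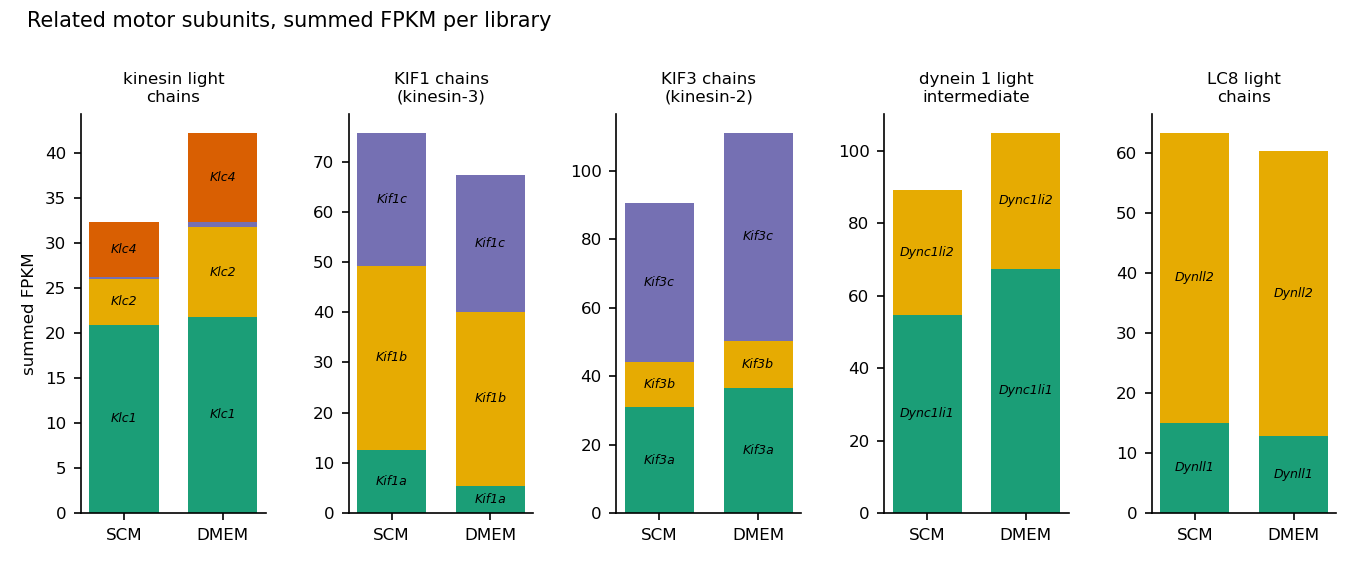
Summed FPKM (linear axes from 0) of related motor subunits in the SCM library (left bar of each panel) and the DMEM library (right bar), stacked by gene. Klc2 and Klc4 are smaller and Klc1 about equal in SCM, Kif1a is larger in SCM, and the makeup of the KIF3, dynein light intermediate and LC8 chains is close in both libraries.

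Of the 4 kinesin-2 motors, which drive outward transport in cilia and carry vesicles, 3 were measured and 0 were called in either direction. All 4 ratios were below 1, with intervals below 1 for Kif3a and Kif3c. By comparison, 6403 of the 12050 protein-coding genes with at least 20 reads had a ratio below 1, and 4302 had an interval below 1. Kif3c had 46.3 FPKM (12570 reads) in SCM and 60.7 FPKM (13074 reads) in DMEM, a ratio of 0.763 (0.744 to 0.782). Kif3a, the shared partner of Kif3b and Kif3c, had 30.9 FPKM in SCM and 36.4 FPKM in DMEM, and Kif3b had a ratio of 0.953 with an interval that held 1. Kif3c held 51.1% of KIF3 FPKM in SCM and 54.6% in DMEM, the largest share in each library. A long noncoding row, 1110002L01Rik, covers 35.3% of the Kif3c length on the opposite strand, with 286 reads in SCM and 206 reads in DMEM. The accessory subunit gene Kifap3 went the other way, at 50.3 FPKM in SCM and 40.3 FPKM in DMEM (ratio 1.25, 1.20 to 1.29). Kif17, a homodimeric kinesin-2, had 9 reads in SCM and 13 reads in DMEM. Kifc3, a minus-end kinesin of cell junctions, had 4.47 FPKM in SCM and 6.20 FPKM in DMEM, and Kifc2 had 1.35 and 1.98 FPKM. Kifc3 was 1.39-fold lower in SCM (1.26 to 1.52) and Kifc2 1.46-fold lower (1.20 to 1.78).

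Dynein 1, the motor of inward transport, was abundant in both media, and its subunits did not all lean the same way. The heavy chain Dync1h1, which carries the motor domain, had 113 FPKM (64857 reads) in SCM and 98.05 FPKM (44653 reads) in DMEM, a ratio of 1.15 (1.14 to 1.17). The other core chains were lower in SCM. The intermediate chain Dync1i2 had 45.1 FPKM in SCM and 53.5 FPKM in DMEM, and the neuronal form Dync1i1 had 0 reads in both, which allows up to 0.0229 FPKM in SCM and 0.0289 FPKM in DMEM. The light intermediate chains, which bind cargo adaptors, were Dync1li1 at 54.8 and 67.5 FPKM in SCM and DMEM and Dync1li2 at 34.3 and 37.4 FPKM. Their ratios lay between 0.812 and 0.916, with intervals below 1. Such intervals were found for 4302 of the 12050 protein-coding genes with at least 20 reads. Between these libraries the level of Kif5b over that of Dync1h1 was 1.15 in SCM and 1.65 in DMEM.

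Light chains of dynein covered a wide range of levels. Dynlt3, of the Tctex family, was the most abundant member of all, at 208 FPKM (19652 reads) in SCM and 225 FPKM (16881 reads) in DMEM. Dynll2 had 48.3 FPKM in SCM and 47.6 FPKM in DMEM, 3.22-fold and 3.74-fold the level of its LC8 relative Dynll1, which had 15.01 and 12.74 FPKM. Dynlrb1, the roadblock chain, had 37.4 FPKM in SCM and 41.1 FPKM in DMEM, and its relative Dynlrb2 had 0 reads. The Dynlt1 copies Dynlt1a, Dynlt1b, Dynlt1c and Dynlt1f share 70.5% to 88.9% of their 50-base stretches with another gene, so their separate levels of 0.198 to 2.33 FPKM in SCM and 0.2498 to 2.54 FPKM in DMEM are uncertain.

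Dynein 2, the inward motor of cilia, was at a level far below dynein 1. Dync2h1 had 4.58 FPKM in SCM and 3.99 FPKM in DMEM, and the level of Dync1h1 was 24.7-fold that of Dync2h1 in SCM and 24.6-fold in DMEM. Its light intermediate chain Dync2li1 had 4.42 FPKM (303 reads) in SCM and 3.02 FPKM (164 reads) in DMEM, a ratio of 1.47 (1.21 to 1.78), while Dync2i1 and Dync2i2 had intervals that held 1. Kif7, a regulator of Hedgehog signalling at the tip of cilia, had 0.744 FPKM (125 reads) in SCM and 1.52 FPKM (203 reads) in DMEM and was 2.05-fold lower (1.63 to 2.58). Of the protein-coding genes under 5 FPKM, 6.80% were lower by this rule of a ratio of 2 with an interval that excludes 1.

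The order of levels was similar in both libraries. Dynlt3, Kif5b, Dync1h1 and Dync1li1 held positions 1 to 4 in each, and counting intervals of these neighbours did not overlap. Below them, Dynll2, Kif3c and Dync1i2 followed in SCM, where the intervals of neighbours overlapped. In DMEM the order was Kif3c, Dync1i2 and Dynll2, with intervals apart. Kif1a held position 18 of the members in SCM, against position 23 in DMEM.

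**Figure D5:**
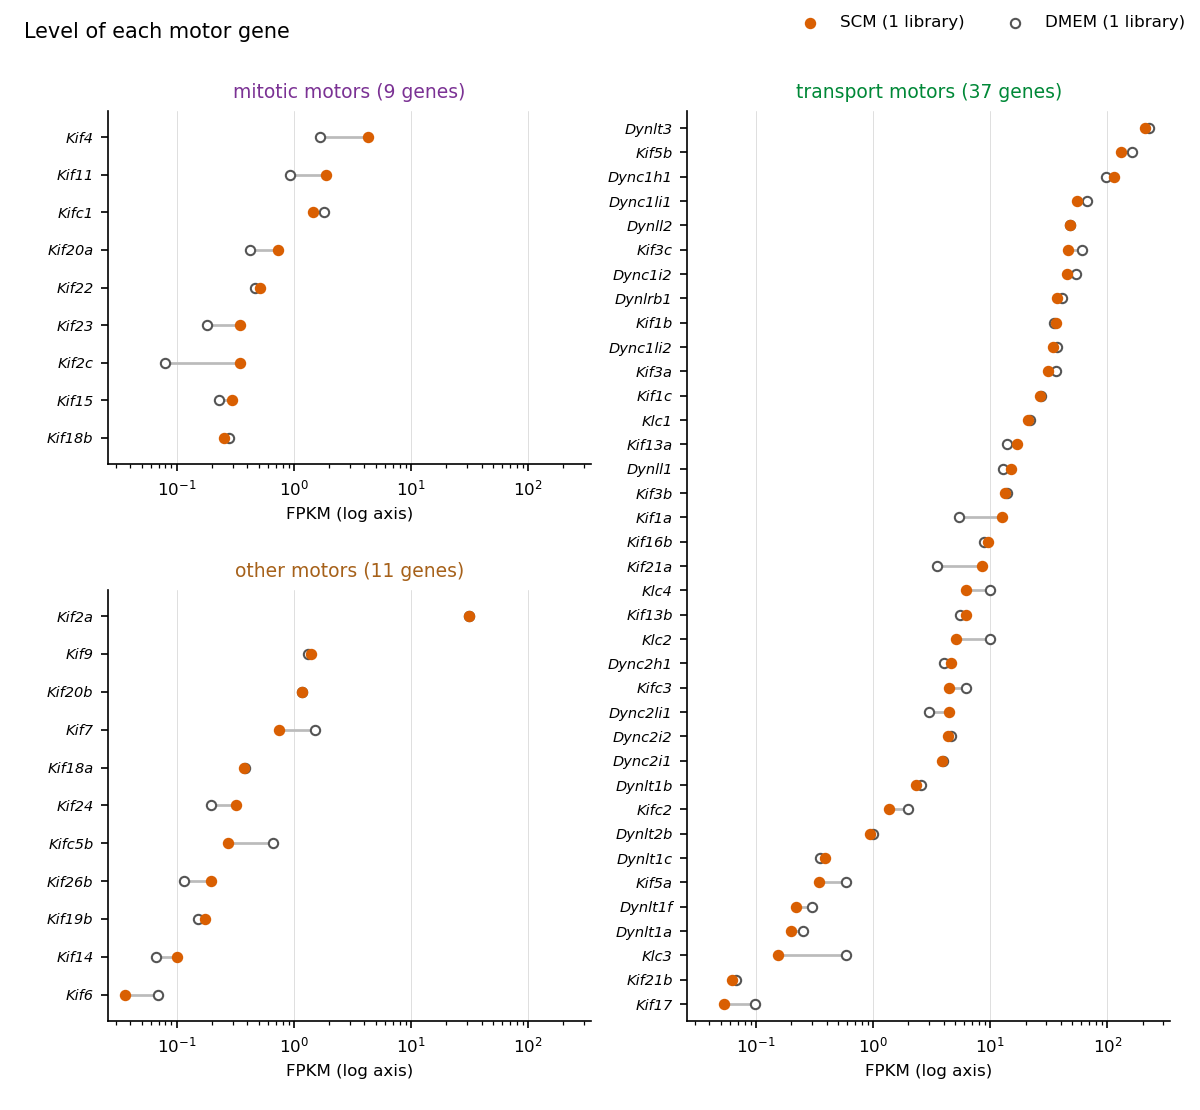
FPKM (log axis) of the 57 motor genes with at least 20 reads over both libraries, in SCM (filled orange points) and DMEM (open grey points), with 1 library per medium and genes sorted by their SCM level within mitotic, other and transport motors. All mitotic motors lie at or below 4.28 FPKM, while Dynlt3, Kif5b and Dync1h1 lie near or above 100 FPKM in both media.

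Of the 17 motors of other or mixed roles, 4 were measured. Kif2a, Kif20b and Kif9 were close between the media, while Kif7, described above, was 2.05-fold lower in SCM. Kif2a, a microtubule depolymerase of neurons and of the spindle, had 31.2 FPKM in each library (interval of the ratio 0.967 to 1.04). Kif20b, a kinesin-6 of late cytokinesis, had 1.18 FPKM in each, and Kif9, known from cilia and flagella, had 1.41 FPKM in SCM and 1.32 FPKM in DMEM. Kif18a, which aligns chromosomes, had 0.374 and 0.385 FPKM, so this mitotic kinesin outside the named 9 did not share the lean toward SCM. Kif24, a centriolar kinesin, and Kif26b, a kinesin without motor activity that acts in cell polarity, had ratios of 1.62 (1.13 to 2.36) and 1.70 (1.20 to 2.44) at under 0.4 FPKM. Kif14, which acts in cytokinesis, had 38 reads in SCM and 20 reads in DMEM. Kif26a and Kif27 had 0 reads in SCM and 6 reads each in DMEM, at least 2.52-fold lower when 3 reads are taken as the limit of a count of 0 and the 6 reads as exact. The counting interval of their ratio reached up to 0.674.

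Of the 71 members 35 lay under 1 FPKM in both libraries, and 8 of them had 0 reads in each. These 8 were Dync1i1, Dynlrb2, Dynlt2a1, Dynlt2a2, Dynlt4, Dynlt5, Kif2b and Kif28. The remaining members with few reads were Kif12, Kif19a, Kif19b, Kif6 and Dynlt2a3, each with under 20 reads in either library, and Dynlt2b lay just under the filter at 0.938 FPKM in SCM and 0.995 FPKM in DMEM.

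Partners of the transport motors mostly differed by less than 2-fold between the media. Of 12 dynactin genes, which encode the complex that makes dynein processive, all were measured and 0 were past 2-fold, with a median log2 ratio of -0.09. The subunit Dctn1, which binds microtubules, had 30.4 FPKM in SCM and 36.3 FPKM in DMEM. Of 14 dynein regulators and adaptors 12 were measured, their median was 0.03 and none was called lower. The 1 gene called higher was Bicd1, an adaptor that links dynein to Golgi and secretory vesicles, at 6.53 FPKM (6559 reads) in SCM and 2.63 FPKM (2093 reads) in DMEM, a ratio of 2.49 (2.37 to 2.61). Its relative Bicd2 had a ratio of 1.01 (0.958 to 1.06). Pafah1b1, which encodes the dynein regulator Lis1, had 39.9 FPKM in SCM and 38.7 FPKM in DMEM. All 15 kinesin adaptors were measured, 0 were past 2-fold and the median was 0.10. Over measured protein-coding genes, 2.48% were higher and 1.44% lower by this call. With that background, 1 higher gene over these lists is close to what any genes would give. Smaller differences were present. Plain ratios ran from 0.715 to 1.11 for dynactin, 0.647 to 2.49 for dynein regulators and adaptors and 0.638 to 1.52 for kinesin adaptors. Counting intervals lay above 1 for 2, 6 and 8 of these genes in the same order, and below 1 for 6, 4 and 4. Of the 12050 protein-coding genes with at least 20 reads, 3670 had an interval above 1 and 4302 below 1.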

How the data were processed

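RNA was sequenced from TgS1 cells in 2 libraries, 1 from SCM and 1 from DMEM, grouped by the sample titles, and table columns were matched by the name of the medium. The deposited table gives FPKM, per the file headers, which the authors scaled by gene length and assigned reads. STAR 2.7.9a, featureCounts 2.0.1, Trimmomatic 0.39, cutadapt 3.1 and Trim Galore are listed as tools, and GRCm38.p6 and mm10 as builds, per the submitters' processing notes. No parameter or strand setting is stated, the build of the table's coordinates was not settled, and no gene coordinate of the table is printed.

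FPKM times length in kilobases came in whole steps in each library, within 0.01 of a read for 100% of rows. The reads recovered in this way served for counting intervals. With 1 library per medium no test was made. Main settings were a pseudocount of 1 FPKM, a filter of 1 FPKM in either library and a 2-fold call. Interval coverage was tested on simulated data.

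Members, roles and lists were chosen with earlier results of these data known. By rule, each mitotic motor and each measured member was named, with full values for those past 1.5-fold, the 10 highest and the kinesin-1, kinesin-2 and dynein chains, and so were partner genes past 2-fold with Cenpe, Kifap3, Dctn1 and Pafah1b1. Other members under the filter and other partners, such as Kifc5b, Aurka, Prc1, Numa1 and Bicd2, were named after their values were seen. The stretches of 50 bases came from GENCODE M21 transcripts, counted on both strands, and promoters were matched by symbol. Python 3.11.15, pandas 2.3.3, NumPy 2.4.6, SciPy 1.17.1 and Matplotlib 3.10.9 were used.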

Additional observations from a re-analysis of the deposited data

How the results depend on the processing

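The numbers of members past 2-fold were 2 higher and 0 lower. A pseudocount of 3 FPKM left 0 higher, a threshold of 1.5-fold gave 4 higher and 2 lower, and a plain ratio of 2 with an interval that excludes 1 gave 5 higher and 5 lower, of which Kif26a and Kif27 had under 20 reads. Over protein-coding genes with at least 20 reads, 6.32% were higher and 4.27% lower by that rule. TPM gave 1 lower member, Klc3, and its 3 higher ones included Kif4, as did those with median scaling or with a pseudocount of 0.1 FPKM. The median log2 ratio of mitotic motors was 0.59. It was 0.97 and 0.32 with pseudocounts of 0.1 and 3 FPKM, 0.19 without the filter, 0.30 with Kif14, Kif18a, Kif20b and Kif24 added, and 0.80 for plain ratios without the filter, a setting added after the data were seen. The difference between mitotic and transport medians of 0.66 was 1.04, 0.38, 0.25, 0.36 and 0.91 under these settings in the same order. With the filter it rests on 3 mitotic motors, the middle one being Kif11, which passed only through its SCM level. The difference was positive under all these settings, but its constant sign is not read as evidence of stability. A filter of 5 FPKM left no mitotic motor and so gave no value. The transport median was -0.16 in TPM, where a lower effective filter admits 51 members in place of 36. The pseudocount and filter act by construction on genes near 1 FPKM, where the mitotic motors lie. Of the measured members, 2 changed sign under median scaling and 2 in TPM, all within 0.1 of 0 on the log2 scale. No paired analysis was possible because there is 1 library per medium, and for the same reason leaving out a replicate could not be run.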
